A study of Mus musculus with 25 samples.

Results

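Transcripts of 9 genes known in other settings as immediate early genes were followed across 8 doses of hypochlorous acid (HOCl): Egr1, Egr2, Egr3, Arc, Ier2, Ier3, Klf2, Klf4 and Klf6. They were chosen by name, and every array feature (probe set) annotated to 1 of these symbols alone was taken, which gave 16 of the 45037 probe sets tested. Each gene is represented by its brightest probe set unless another is named, so the 9 genes stand among 18193 measured in the same way. The cells were RAW 264.7, an established macrophage line from a mouse leukaemia virus tumour, grown in serum-containing medium to near confluence and held for 6 h with HOCl in the medium. HOCl is the oxidant that neutrophils make with myeloperoxidase. The treated groups received HOCl at 0.14, 0.35 or 0.7 mM, at 1.4 or 2.1 mM, and at 2.8 or 3.5 mM (3 arrays each), and the untreated cells received 0 mM in the same medium (4 arrays). All groups are of 1 cell line and 1 exposure time. The labels call the replicates biological but do not say which were treated or processed together, so p-values rest on the spread between these 25 arrays.

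Immediate early genes are transcribed from factors that a cell already holds, without new protein, and their transcripts are usually short-lived. EGR1, EGR2 and EGR3 are zinc finger transcription factors that bind GC-rich sites, and are switched on through mitogen-activated kinases, the serum response factor SRF and its ELK partners. KLF2, KLF4 and KLF6 bind GC boxes and CACCC sequences, and in macrophages KLF2 restrains inflammatory gene expression, KLF4 is tied to alternative activation and KLF6 to inflammatory activation. ARC is a synaptic protein related to retrotransposon Gag, IER2 is a nuclear early response protein, and IER3 takes part in survival and NF-kB signalling.

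Promoter sequences of Egr2, Klf2, Klf4 and Ier3 are shown because the motifs that immediate early factors bind could be looked for there. Klf2, Klf4 and Ier3 also carry calls described below. RefSeq start sites gave 9 windows for 5 members (Egr2, Ier3, Klf2, Klf4 and Klf6). Egr1 was left out of the search, and no window was found for Arc, Egr3 and Ier2. Each run gives the 250 bases before the start site, 5′ to 3′ on the gene's strand, from RefSeq on GRCm38.p6. Capitals mark matches on either strand to 5 motifs: the CArG box bound by SRF, the EGR site GCGNGGGCG, the cAMP response element TGACGTCA, the AP-1 site TGANTCA and the core TGACNNNGC of the antioxidant response element.
Egr2, chr10:67537619-67537868, plus strand: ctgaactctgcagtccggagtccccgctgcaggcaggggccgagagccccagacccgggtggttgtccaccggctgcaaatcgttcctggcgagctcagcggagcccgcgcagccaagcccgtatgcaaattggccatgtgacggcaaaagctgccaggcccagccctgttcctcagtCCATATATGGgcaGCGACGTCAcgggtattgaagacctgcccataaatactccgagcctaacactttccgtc
Klf2, chr8:72318812-72319061, plus strand: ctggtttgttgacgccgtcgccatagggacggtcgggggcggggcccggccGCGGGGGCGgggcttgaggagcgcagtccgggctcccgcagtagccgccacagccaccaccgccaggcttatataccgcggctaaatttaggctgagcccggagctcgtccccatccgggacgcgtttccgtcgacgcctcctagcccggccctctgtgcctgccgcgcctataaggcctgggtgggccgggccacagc
Klf4, chr4:55532476-55532725, minus strand: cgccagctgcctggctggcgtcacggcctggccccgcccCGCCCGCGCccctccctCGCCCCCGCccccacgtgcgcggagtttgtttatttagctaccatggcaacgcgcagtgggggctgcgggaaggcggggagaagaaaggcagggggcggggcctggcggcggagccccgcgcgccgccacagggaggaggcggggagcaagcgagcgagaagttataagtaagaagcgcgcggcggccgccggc
Ier3, chr17:35821463-35821712, plus strand: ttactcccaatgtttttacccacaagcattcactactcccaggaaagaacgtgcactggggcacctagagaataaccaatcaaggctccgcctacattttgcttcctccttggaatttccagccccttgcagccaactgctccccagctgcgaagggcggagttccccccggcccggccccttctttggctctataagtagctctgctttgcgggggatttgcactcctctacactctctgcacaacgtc

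Of 5 Egr2 windows, 3 of which overlap and hold the same sites, 4 had a CArG box, 3 an antioxidant core match and 1 none of the motifs. The window printed held a CArG box 72 to 63 bases before the start, a motif found in 1.47% of 32851 windows of the same length, and beside it a match to the antioxidant core 59 to 51 bases before the start (10.2% of windows). Klf4 had 2 EGR sites, 211 to 203 and 194 to 186 bases before the start, and Klf2 had 1, 199 to 191 bases before it (4.7% of windows hold at least 1). Klf6 had 1 antioxidant core match. None of the 5 motifs was found in the Ier3 window. Neither the cAMP response element (1.55% of windows) nor the AP-1 site (6.75%) was found in any window of the 5 members searched. These are matches of letters only.

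Values are log2 signals of a probe set, scaled so that the median of each array is 0. They describe RNA of a whole culture, in which a change in the cells present and a change in RNA per cell cannot be told apart, and their precision is limited by how many arrays there are. All 9 macrophage marker genes had mean signals between 2.57 and 8.18, while 13 of 22 markers of other cell types were below 0 and 3 above 1. Bacterial control RNA added during labelling (the poly-A spikes) separated the arrays: 14 had a mean spike signal of at least 1.75, namely every array from 1.4 mM upwards and replicate 3 at both 0.35 and 0.7 mM, and the remaining 11 had at most 1.12. In a comparison of 1.4 mM or more with 0 mM, dose and spike level cannot be told apart within the compared arrays, and once spike level enters the fit, such a comparison rests on replicate 3 of those 2 lower doses.

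The arrays of a dose differed widely for these genes. At 0 mM, replicates 2 and 4 stood above replicates 1 and 3: Egr1 had 6.60 and 6.38 on replicates 2 and 4, and 3.53 and 4.22 on replicates 1 and 3. Klf4 had 3.45 and 3.27 on replicates 2 and 4, and -0.16 and 1.34 on replicates 1 and 3, a spread of more than 3 log2 units within untreated cells. The same 2 arrays were the upper ones for Egr2, Arc, Ier2, Klf2 and Klf6. They were not for Ier3 or for the brightest Egr3 probe set. The second Egr3 probe set, 1436329_at, did show the split, its upper pair at 2.56 and 2.29 and its lower pair at 1.20 and 1.62. In all, 8 of the 9 genes spanned more than 1 log2 unit within the 0 mM arrays, against 12.8% of all genes.

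Single arrays also stood apart at 2 higher doses. Replicate 1 of 1.4 mM was the highest of its dose for 8 of the 9 genes (33.21% of all genes), with 5.60 for Egr1 beside 3.09 and 3.83. Replicate 1 of 2.8 mM was the highest for 6 of 9 (44.76% of all genes), with 7.01 for Egr1 beside 4.17 and 4.54. A range over 1 was seen for 7 of the 9 genes at 1.4 mM (8.256% of all genes) and for 7 at 2.8 mM (6.013%), for 4 at 0.7 mM (6.673%) and 2 at 3.5 mM (5.425%), and for none at 0.14, 0.35 and 2.1 mM (0.1594%, 5.59% and 0% of genes). Spike level was 1.06 and 1.12 on replicates 2 and 4 and 1.03 and 0.74 on replicates 1 and 3 of 0 mM. On replicate 1 of 1.4 mM it was 1.83, beside 2.02 and 2.15, and on replicate 1 of 2.8 mM 2.20, beside 2.05 and 1.91. Beta-actin 3′ signal exceeded 5′ signal, a measure of RNA integrity and labelling, by 0.47 on both of replicates 2 and 4 of 0 mM. The excess was 0.12 and 0.34 on replicates 1 and 3 of 0 mM. On replicate 1 of 1.4 mM it was 0.57, beside 0.56 and 0.43, and on replicate 1 of 2.8 mM 0.56, beside 0.45 and 0.46. The highest beta-actin excess of all arrays, 0.68, was on replicate 2 of 3.5 mM. The same measure for Gapdh was 0.36 on replicate 1 of 0 mM and between -0.11 and -0.0084 on all other arrays. The part of these measures in the spread was not tested.

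**Figure D1:**
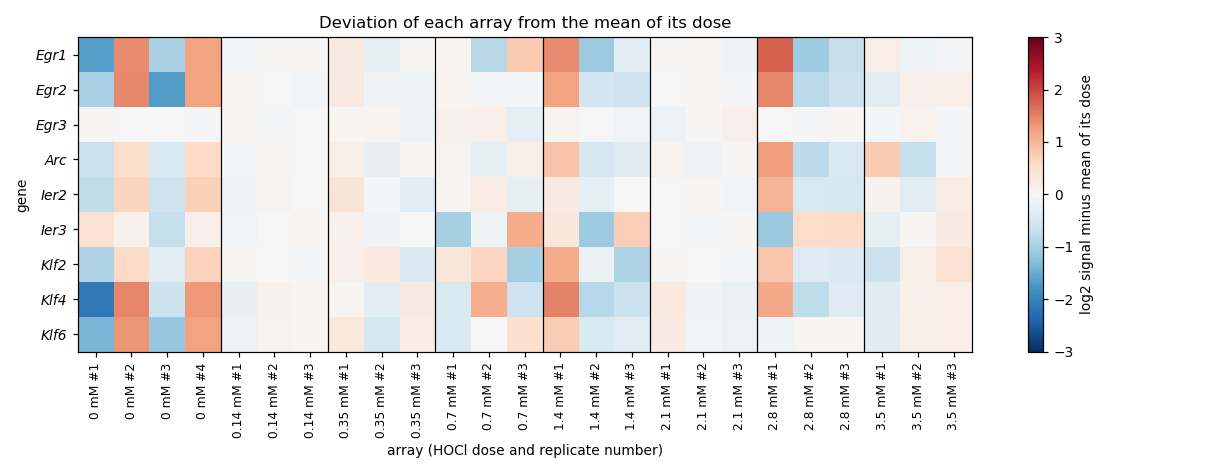
Deviation of each of 25 arrays (columns, by HOCl dose and replicate number) from the mean of its dose, for 9 genes (rows), in log2 units from blue (below) to red (above). Replicates 2 and 4 of 0 mM are red and 1 and 3 blue for most genes, replicate 1 of 1.4 and of 2.8 mM is red for most genes (at 2.8 mM Ier3 is blue and Egr3 and Klf6 are pale), and the columns of 0.14 and 2.1 mM are nearly white.

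Across doses, then, the question of which genes moved with HOCl was asked against the pooled spread of all 8 groups. A moderated F test of the 7 doses against 0 mM, fitted by limma over all probe sets with Benjamini-Hochberg adjustment, called 4 of the 9 genes at an adjusted p under 0.05, against 28.0% of all genes: Arc (adjusted p = 0.000697), Klf4 (0.00281), Ier3 (0.0144) and Klf2 (0.0291). The other 5 had adjusted p-values of 0.119 (Egr2), 0.124 (Egr1), 0.176 (Egr3), 0.213 (Ier2) and 0.299 (Klf6). The highest mean was at 2.1 mM for Ier3, at 2.8 mM for Arc, at 3.5 mM for Klf4 and at 0 mM for Klf2.

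**Figure D2:**
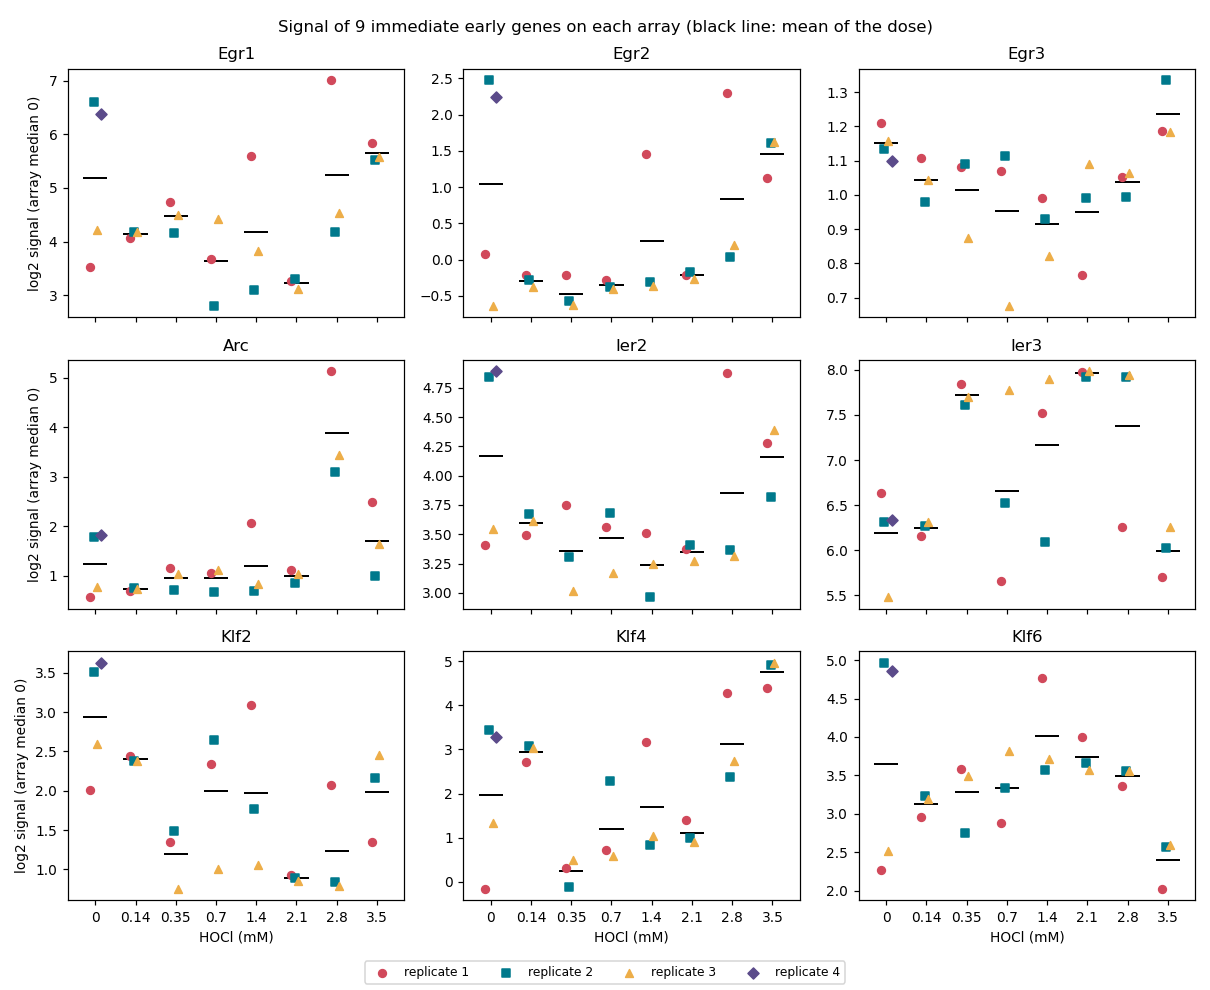
Log2 signal of 9 genes (panels, each with its own vertical scale) on every array, by HOCl dose; symbols mark the replicate number and black lines the mean of a dose. Arc at 2.8 mM (3.11 to 5.14) and Klf4 at 3.5 mM (4.40 to 4.97) lie above every array of the other doses, and Ier3 at 2.1 mM (7.92 to 7.98) lies above every array of 0, 0.14, 0.35 and 3.5 mM.

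Among the EGR genes, Egr1 was bright and variable. Its signal was 3.53, 6.60, 4.22 and 6.38 at 0 mM; 4.06, 4.18 and 4.19 at 0.14 mM; 4.74, 4.17 and 4.50 at 0.35 mM; and 3.68, 2.80 and 4.41 at 0.7 mM. It was 5.60, 3.09 and 3.83 at 1.4 mM; 3.27, 3.30 and 3.12 at 2.1 mM; 7.01, 4.17 and 4.54 at 2.8 mM; and 5.84, 5.51 and 5.57 at 3.5 mM. The 3 arrays of 2.1 mM were below all 4 of 0 mM, and those of 3.5 mM lay inside the 0 mM range. The largest difference from 0 mM was at 2.1 mM, where Egr1 averaged 3.23 ± 0.0961 (SD, n = 3), against 5.19 ± 1.54 at 0 mM (SD, n = 4), a difference of -1.96 that did not pass (SE 0.701, limma adjusted p = 0.0702). It passed with quantile normalization (-2.06, adjusted p = 0.04997), without replicates 1 of 1.4 and 2.8 mM (-1.96, adjusted p = 0.0194) and without replicates 1 and 3 of 0 mM (-3.26, adjusted p = 0.00326). Without replicates 2 and 4 of 0 mM it shrank to -0.65 (adjusted p = 0.552). The residual SD of Egr1 over all doses was 0.993, larger than that of all but 0.2753% of probe sets, whose median was 0.181.

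Egr2 behaved much as Egr1 did on the single arrays. Its brightest probe set had 0.08, 2.48, -0.64 and 2.24 at 0 mM, lay between -0.63 and -0.17 on every array of 0.14, 0.35, 0.7 and 2.1 mM, and had 1.46, -0.31 and -0.37 at 1.4 mM and 2.29, 0.04 and 0.20 at 2.8 mM. At 3.5 mM it had 1.13, 1.60 and 1.62, above every array of those doses and inside the 0 mM range. Against 0 mM no dose passed, the difference being between -1.51 at 0.35 mM (SE 0.615, adjusted p = 0.148) and 0.41 at 3.5 mM (SE 0.615, adjusted p = 0.716). Both values turned on the untreated arrays: without replicates 2 and 4 of 0 mM they were -0.19 (adjusted p = 0.878) and 1.73 (adjusted p = 0.0466), and without replicates 1 and 3 they were -2.83 (adjusted p = 0.00166) and -0.91 (adjusted p = 0.292). Against 0.14 mM, a comparison added because of the spread at 0 mM, the difference at 3.5 mM was 1.74 (SE 0.657, adjusted p = 0.0948), and it passed when replicates 1 of 1.4 and 2.8 mM were left out (1.74, adjusted p = 0.0378). The second Egr2 probe set followed the first, with differences of -1.58 at 0.35 mM and 0.52 at 3.5 mM (adjusted p = 0.205 and 0.690).

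The 2 probe sets of Egr3 went different ways. The brighter, 1421486_at, stayed between 0.68 and 1.34 on all 25 arrays, with a residual SD of 0.121, smaller than that of 81.57% of probe sets. Its mean was 1.04, a level that some markers of other cell types also reached, such as Cd3e (1.05) and Cd4 (1.14). Whether its signal is that of Egr3 was not tested. The other, 1436329_at, had -0.51, -0.84 and -1.01 at 2.1 mM, against 1.20, 2.56, 1.62 and 2.29 at 0 mM. All 3 arrays of 2.1 mM were below every 0 mM array, and this probe set fell by 2.70 on the log2 scale (SE 0.647, limma adjusted p = 0.00893). No fold is given, since at 2.1 mM it lay below the array median, where most markers of other cell types also lay. It was also low on replicates 2 and 3 of 2.8 mM (-0.35 and -0.56) and of 3.5 mM (-0.74 and -0.48), where replicate 1 had 2.00 and 1.92. The 2.1 mM call did not hold without replicates 2 and 4 of 0 mM (-2.20, adjusted p = 0.0769) or with spike level as a term (-3.94, adjusted p = 0.133).

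**Figure D3:**
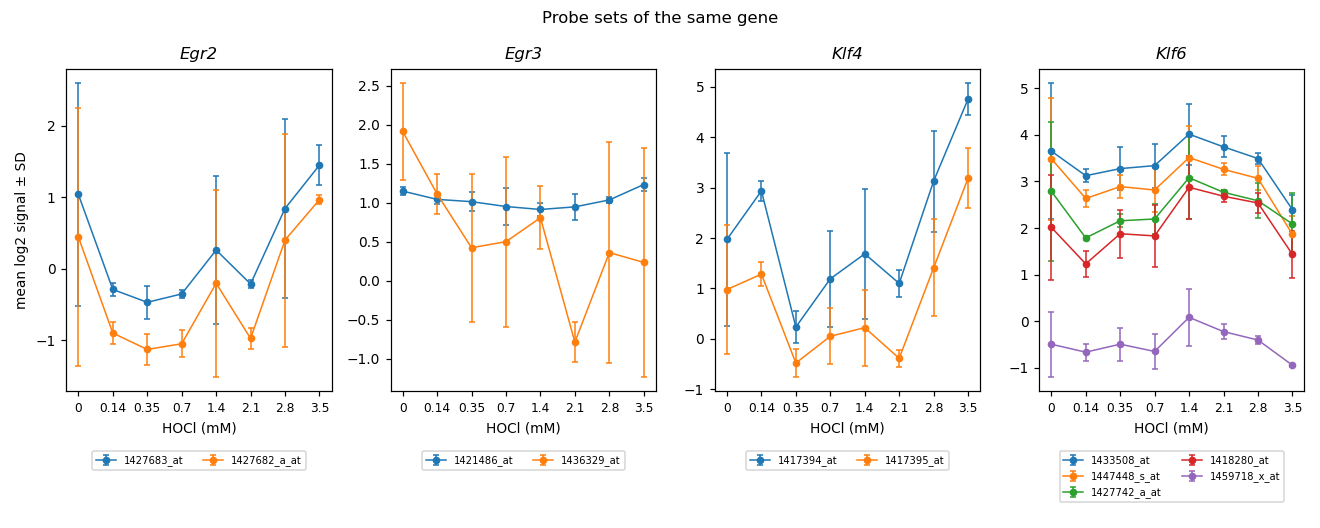
Mean log2 signal (points) and SD (bars; 4 arrays at 0 mM, 3 at each other dose) of every probe set of Egr2, Egr3, Klf4 and Klf6, by HOCl dose. The probe sets of Egr2 and of Klf4 run nearly side by side. Those of Klf6 differ in their lowest dose, which is 0.14 mM for 1427742_a_at and 1418280_at and 3.5 mM for the others. Egr3 1436329_at drops to a mean of -0.79 at 2.1 mM, while Egr3 1421486_at stays near 1.

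Arc rose at 2.8 mM. Its signal was 5.14, 3.11 and 3.44 at 2.8 mM, against 0.57, 1.79, 0.77 and 1.83 at 0 mM. At the doses from 0.14 to 2.1 mM it stayed between 0.67 and 1.15, except on replicate 1 of 1.4 mM (2.06), and at 3.5 mM it had 2.49, 1.00 and 1.64. Every 2.8 mM array was above every array of the other 7 groups. Arc averaged 3.89 ± 1.09 at 2.8 mM (SD, n = 3) and 1.24 ± 0.665 at 0 mM (SD, n = 4), a rise of 6.30-fold (log2 2.66, SE 0.428, limma adjusted p = 0.000697). It was 7.42-fold higher at 2.8 than at 2.1 mM (log2 2.89, SE 0.458, adjusted p = 0.0191), a step at which 0.0330% of genes were called. At 3.5 mM it was 4.53-fold lower than at 2.8 mM (log2 -2.18, SE 0.458, adjusted p = 0.00406), a step at which 14.1% of genes were called. The Arc means at 0 and 2.1 mM (1.24 and 1.00) lay within those of markers of other cell types (-1.61 to 1.49). Folds taken from them are therefore approximate.

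The 2.8 mM rise of Arc was called without each array in turn (log2 2.03 to 3.05, highest adjusted p = 0.00335) and was not called with spike level as a term (2.48, SE 0.661, adjusted p = 0.0914). The step from 2.1 mM lies between arrays that all have the high spike level. That term therefore cannot change its size (2.89, adjusted p = 0.0212 with the term), which says nothing on spike level. The step was not called without any 1 of 5 arrays of these 2 doses, namely all 3 of 2.1 mM and replicates 1 and 3 of 2.8 mM (log2 2.27 to 3.28 over the 25 fits, highest adjusted p = 0.171). It was also not called when the arrays of high spike level were fitted alone (adjusted p = 0.212). The fall from 2.8 to 3.5 mM was called without each array in turn (highest adjusted p = 0.0316) and was not called when those 2 doses alone were fitted (adjusted p = 0.0867).

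The residual SD of Ier2 was 0.503, larger than that of all but 4.556% of probe sets. Ier2 was highest on some of the arrays already named and at 3.5 mM. It had 4.84 and 4.89 on replicates 2 and 4 of 0 mM and 4.88 on replicate 1 of 2.8 mM, and 3.82 to 4.39 at 3.5 mM. All other arrays lay between 2.96 and 3.75. No dose passed against 0 mM, the largest difference being -0.93 at 1.4 mM (SE 0.357, limma adjusted p = 0.115). Without replicates 1 and 3 of 0 mM Ier2 at 1.4 mM was lower by 1.62 log2 units and was called (adjusted p = 0.00606), and without replicates 2 and 4 it differed by -0.24 (adjusted p = 0.679).

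Ier3 was high at intermediate doses. It had 7.84, 7.61 and 7.70 at 0.35 mM, and 7.97, 7.92 and 7.98 at 2.1 mM, against 6.64, 6.31, 5.48 and 6.34 at 0 mM; at 0.14 mM it had 6.16, 6.27 and 6.32. All arrays of 0.35 and 2.1 mM were above all arrays of 0 and 0.14 mM. Between those doses it was split: 5.66, 6.53 and 7.77 at 0.7 mM, 7.52, 6.09 and 7.90 at 1.4 mM, and at 2.8 mM 6.26, 7.92 and 7.95. At 3.5 mM it was back to 5.71, 6.02 and 6.25. The difference from 0 mM was 1.77 at 2.1 mM, or 3.41-fold (SE 0.451, limma adjusted p = 0.0133), and 1.53 at 0.35 mM, or 2.88-fold (SE 0.451, adjusted p = 0.0480). At 2.8 mM it was 1.18 (SE 0.451, adjusted p = 0.0956), and 1.74 without replicates 1 of 1.4 and 2.8 mM (adjusted p = 0.0135).

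The 2 Ier3 calls differed in how they held. At 2.1 mM the call held without any 1 array (highest adjusted p = 0.0483), and against 0.14 mM the rise was 1.71 (SE 0.482, adjusted p = 0.0250), a call lost without any 1 of the 6 arrays compared. With spike level in the fit the 2.1 mM difference was 0.94 against 0 mM (adjusted p = 0.576) and 0.89 against 0.14 mM (adjusted p = 0.837). At 0.35 mM the call was lost in 17 of 25 fits that left out 1 array (log2 1.29 to 1.68, highest adjusted p = 0.126), among the 0 mM arrays without replicate 2, 3 or 4, and with spike level in the fit (1.25, adjusted p = 0.0945). Within the arrays of low spike level alone, 2 of 0.35 mM and 4 of 0 mM, the rise was 1.54 (SE 0.305, adjusted p = 0.0249). At 0.7 mM the array of high spike level was the one at 7.77.

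Klf2 fell at 3 doses. It had 1.35, 1.49 and 0.75 at 0.35 mM, 0.93, 0.89 and 0.85 at 2.1 mM and 2.07, 0.83 and 0.79 at 2.8 mM, against 2.01, 3.51, 2.60 and 3.63 at 0 mM. The groups did not overlap at 0.35 and 2.1 mM, and replicate 1 of 2.8 mM lay inside the 0 mM range. Klf2 averaged 0.89 ± 0.0395 at 2.1 mM (SD, n = 3) and 2.94 ± 0.770 at 0 mM (SD, n = 4), a 4.12-fold fall (log2 -2.04, SE 0.469, limma adjusted p = 0.00703). At 0.35 mM it fell 3.34-fold (log2 -1.74, SE 0.469, adjusted p = 0.0325), and at 2.8 mM 3.26-fold (log2 -1.71, SE 0.469, adjusted p = 0.0226). The Klf2 means at these 3 doses lay within those of markers of other cell types (-1.61 to 1.49), so the folds are approximate. At 0.7 mM it had 2.34, 2.65 and 1.01, at 1.4 mM 3.09, 1.77 and 1.05 and at 3.5 mM 1.35, 2.16 and 2.45, and no call was made at these doses (adjusted p = 0.454, 0.218 and 0.212).

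All 3 Klf2 calls depended on the upper pair of 0 mM arrays. Without replicates 2 and 4 of 0 mM the differences were -1.41 at 2.1 mM (adjusted p = 0.0875), -1.11 at 0.35 mM (0.283) and -1.07 at 2.8 mM (0.199). With spike level in the fit they were -0.97 at 2.1 mM (adjusted p = 0.565), -1.38 at 0.35 mM (0.0695) and -0.63 at 2.8 mM (0.667). The 0.35 mM call was also lost without replicate 2 or 4 of 0 mM or any 1 array of 0.35 mM (highest adjusted p = 0.104), and the 2.8 mM call without replicate 2 or 4 of 0 mM or replicate 2 or 3 of 2.8 mM (0.115). Against 0.14 mM, where Klf2 had 2.44, 2.38 and 2.37, the difference at 2.1 mM was -1.51 (SE 0.502, limma adjusted p = 0.0546).

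Klf4 rose at 3.5 mM. Its signal was 4.40, 4.91 and 4.97 at 3.5 mM, against -0.16, 3.45, 1.34 and 3.27 at 0 mM, and the groups did not overlap. It averaged 4.76 ± 0.313 at 3.5 mM (SD, n = 3) and 1.97 ± 1.71 at 0 mM (SD, n = 4), a 6.90-fold rise (log2 2.79, SE 0.697, limma adjusted p = 0.0147). The second probe set, 1417395_at, had 2.64, 3.11 and 3.81 at 3.5 mM, against -0.48, 2.37, 0.35 and 1.67 at 0 mM, and rose 4.63-fold (log2 2.21, SE 0.530, adjusted p = 0.0113). Its 0 mM mean of 0.98 lay within those of markers of other cell types (-1.61 to 1.49), so this fold is approximate. This second probe set was also called higher at 3.5 mM against 0.14 mM (1.90, SE 0.566, adjusted p = 0.0347) and against 2.8 mM (1.78, SE 0.566, adjusted p = 0.0469), where the first had 1.82 (adjusted p = 0.124) and 1.63 (adjusted p = 0.192); the 2 calls of the second were lost in 5 and in 16 of the 25 fits that left out 1 array. Without replicates 1 and 3 of 0 mM, the low pair, the rise of the first probe set was 1.40 (adjusted p = 0.157), and without replicates 2 and 4 it was 4.17 (adjusted p = 0.000900). Leaving out replicate 2 or 3 of 3.5 mM also lost the call (highest adjusted p = 0.0551). With spike level in the fit the first probe set had 3.06 (adjusted p = 0.101) and the second 2.77 (adjusted p = 0.0469). The second was not called without replicates 1 and 3 of 0 mM (1.17, adjusted p = 0.135), without replicate 3 of 3.5 mM (adjusted p = 0.0654) or when these 2 doses alone were fitted.

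At lower doses Klf4 ran the other way. It had 0.32, -0.11 and 0.49 at 0.35 mM, against 2.71, 3.07 and 3.03 at 0.14 mM, so every 0.35 mM array was below every 0.14 mM array. The step of -2.70 stood at the edge of the threshold (SE 0.746, limma adjusted p = 0.0501), with 4.03% of genes called at that step. It was called with quantile normalization (-2.72, adjusted p = 0.0392) and without replicates 1 of 1.4 and 2.8 mM (-2.70, adjusted p = 0.0207). Klf4 then had 0.71, 2.29 and 0.57 at 0.7 mM, 3.17, 0.84 and 1.05 at 1.4 mM, 1.40, 1.00 and 0.90 at 2.1 mM, and 4.27, 2.38 and 2.75 at 2.8 mM.

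By its brightest probe set, Klf6 was lowest at 3.5 mM. Its brightest probe set had 2.02, 2.57 and 2.59 at 3.5 mM, against 2.27, 4.97, 2.51 and 4.86 at 0 mM, and the difference of -1.26 did not pass (SE 0.500, limma adjusted p = 0.120). Against replicates 2 and 4 of 0 mM alone it was -2.52 (adjusted p = 4.18e-05), and against replicates 1 and 3 alone 0.0025 (adjusted p = 0.998), so its size rested on the untreated pair used. At 2.1 mM the same probe set was called in both directions, higher against replicates 1 and 3 (1.35, adjusted p = 0.0166) and lower against replicates 2 and 4 (-1.17, adjusted p = 0.0177). For the brightest probe set the 3.5 mM arrays were below every array of the other treated doses, whose lowest was 2.75 at 0.35 mM. Probe sets 1427742_a_at and 1418280_at instead had their lowest mean at 0.14 mM (1.79 and 1.23), against 2.09 and 1.43 at 3.5 mM. Of the other 4 probe sets, 1447448_s_at fell at 3.5 mM by 1.63 on the log2 scale (SE 0.459, adjusted p = 0.0294), with 1.42, 2.07 and 2.11 at 3.5 mM, against 2.78, 4.58, 2.00 and 4.60 at 0 mM; it was not called without replicate 2 or 4 of 0 mM, without any 1 array of 3.5 mM (highest adjusted p = 0.120) or with spike level in the fit (-2.08, adjusted p = 0.0863). Probe set 1418280_at was higher at 1.4 than at 0.14 mM (1.65, SE 0.483, adjusted p = 0.0433), and this was lost in 11 of the 25 fits that left out 1 array, that without replicate 1 of 1.4 mM among them. When only the arrays of high spike level were fitted, 3 Klf6 probe sets were called lower at 3.5 than at 2.8 mM, the brightest by -1.10 (adjusted p = 0.0278). In that fit 14.7% of all genes were called in either direction. The suffix _s_at or _x_at marks probe sets that can match further transcripts, and the dimmest, 1459718_x_at, averaged -0.48, below the array median.

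**Figure D4:**
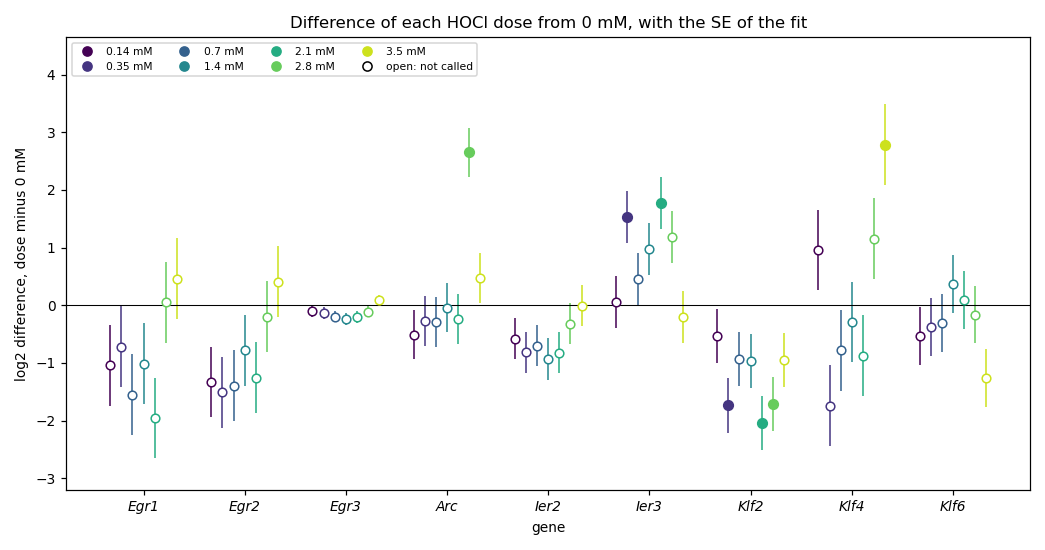
Log2 difference from 0 mM (vertical axis) of the 9 genes at each of the 7 doses, coloured from dark (0.14 mM) to light (3.5 mM); bars are the SE of the fit, and filled points have an adjusted p under 0.05. The filled points are Arc at 2.8 mM, Ier3 at 0.35 and 2.1 mM, Klf2 at 0.35, 2.1 and 2.8 mM and Klf4 at 3.5 mM.

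Counted by dose against 0 mM, none of the 9 genes was called by limma at 0.14 mM (1 at an unadjusted p under 0.05; 0.0110% of all genes called), 0.7 mM (2; 0.165%) or 1.4 mM (3; 8.91%). Here and below, the shares of all genes are at an adjusted p under 0.05 and are no measure for the unadjusted counts. No share of all genes at an unadjusted p is given. At 0.35 mM 2 were called, where 7.67% of all genes were, with 2 at 2.1 mM (15.5%), 2 at 2.8 mM (14.3%) and 1 at 3.5 mM (9.37%). These comparisons share the 0 mM arrays. The median difference of the 9 genes was -0.53 at 0.14 mM and -0.82 at 2.1 mM, against 0.01 and 0.0049 for all genes, and 0.08 at 3.5 mM, against 0.10. The counts turned on which 0 mM arrays were used. With replicates 2 and 4 alone as the untreated cells, 7 of the 9 were called at 2.1 mM, Ier3 higher and 6 lower (17.5% of all genes in that fit), and 3 at 0.14 mM, all lower (3.74%). With replicates 1 and 3 alone, none was called at 0.14 mM (0% of all genes) or 0.35 mM (0.0165%). In that fit Klf6 was called higher at 1.4 mM (1.62, adjusted p = 0.0107; 7.87% of all genes), Ier3 and Klf6 at 2.1 mM (11.2%), Arc, Klf4 and Klf6 at 2.8 mM (9.99%; Klf4 2.54, adjusted p = 0.0233) and Klf4 and Egr2 at 3.5 mM (9.66%).

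Between neighbouring doses, limma called no member at 0.35 against 0.14 mM (3 at an unadjusted p under 0.05), at 0.7 against 0.35 mM (1), at 1.4 against 0.7 mM (0) or at 2.1 against 1.4 mM (1), and at the last 3 of these steps it called 0% of all genes. Arc was the 1 member called at 2.8 against 2.1 mM and at 3.5 against 2.8 mM. Against 0.14 mM, whose arrays were tight, the genes called were Ier3 at 2.1 mM (13.8% of all genes) and Arc at 2.8 mM (13.0%; log2 3.17, SE 0.458, limma adjusted p = 0.000258), and none was called at 0.7 mM (1 at an unadjusted p under 0.05; 0.0220% of all genes called), 1.4 mM (0; 7.74%) or 3.5 mM (3; 12.2%).

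Ordered by mean signal, the doses of Egr1, Egr2, Egr3, Ier2 and Klf2 formed chains in which every dose overlapped its neighbour: Egr1 ran 3.5, 2.8, 0, 0.35, 1.4, 0.14, 0.7 and 2.1 mM from highest to lowest, and Klf2 ran 0, 0.14, 0.7, 3.5, 1.4, 2.8, 0.35 and 2.1 mM. For Arc the top dose, 2.8 mM, was clear of the next, 3.5 mM, and for Ier3 2.1 mM was clear of 0.35 mM, the second highest mean, but not of 2.8 mM. For Klf4 3.5 mM was clear of 2.8 mM and 2.1 mM of 0.35 mM, the lowest. For Klf6 3.5 mM, with the lowest mean, was clear of 0.14 mM but not of 0 mM.

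Other immediate early genes formed a list of 31 that holds the FOS and JUN families, dual specificity phosphatases and NR4A receptors. Many were higher at 2.8 mM than at 0 mM, as Arc was. In that comparison 10 of 31 were called higher, as were 5.68% of all genes, and 0 lower, at a median difference of 0.42, against 0.01 for all genes. At 2.8 against 2.1 mM only 1 of 31, Gadd45b, was called (0.0330% of all genes). At 2.1 against 0 mM 5 were already called higher and 3 lower (15.5% of all genes in either direction). At 3.5 against 2.8 mM, 14 were called lower, as were 5.33% of all genes, and 2 higher, and the median was -1.22, against 0.07. Gadd45b, a stress-induced regulator of kinase signalling and DNA demethylation, shared with Arc the step up at 2.8 mM and the fall after it. It rose by 3.24 at 2.8 mM (SE 0.328, limma adjusted p = 2.96e-05), was called higher at 2.8 than at 2.1 mM (2.53, adjusted p = 0.00836) and fell by 1.57 at 3.5 against 2.8 mM (adjusted p = 0.00627). At 3.5 mM it still had 3.69, 3.32 and 3.23, above every 0 mM array (1.10 to 2.05), whereas Arc at 3.5 mM overlapped 0 mM. Dusp2, a nuclear MAP kinase phosphatase, and Fosl1, an AP-1 subunit, were called higher at 1.4 and 2.1 mM too. At 0.35 mM they had 0.93 and 1.02 (adjusted p = 0.0550 and 0.107). Dusp2 had 2.43 at 2.8 mM (adjusted p = 8.39e-05) and fell by 2.82 at 3.5 against 2.8 mM (adjusted p = 1.37e-05), and Fosl1 had 1.96 (adjusted p = 0.00240) and fell by 3.14 (adjusted p = 6.53e-05). Sgk1, a serum- and glucocorticoid-induced kinase, was called higher at 5 doses, 3.5 mM included (2.30, adjusted p = 0.00203). Fos, singled out after its values were seen, was called higher at 3.5 mM, the dose of the Klf4 rise, with 1.89 at 3.5 mM against 0 mM (adjusted p = 0.0316) and 2.29 against 2.8 mM (adjusted p = 0.0132).

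Of 6 genes for SRF and its partners, 3 were called lower at 3.5 mM, as were 4.83% of all genes, and none higher, at a median difference of -0.86, against 0.10 for all genes. Elk4, an ELK family partner of SRF, fell by 1.73 (SE 0.129, limma adjusted p = 6.41e-08), Mrtfb, an actin-regulated coactivator, by 1.35 (adjusted p = 0.000209) and Mrtfa, its relative, by 1.18 (adjusted p = 0.00291). At 2.8 mM Mrtfa fell by 1.44 (adjusted p = 0.000768) and Elk3, another ELK partner, by 0.83 (adjusted p = 0.0140). Nab1 and Nab2, corepressors that bind EGR proteins, and Egr4 passed at no dose against 0 mM (at most 2 of the 3 at an unadjusted p under 0.05, at 2.1 mM), the largest Nab2 difference being -0.67 at 2.1 mM (adjusted p = 0.126) and that of Nab1 0.53 (adjusted p = 0.143), also at 2.1 mM. Nab1 passed the F test over all doses (adjusted p = 0.0437).

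Of 13 further KLF genes, relatives of the members that bind the same kind of site, 3 were called at 3.5 mM (9.37% of all genes), all lower, at a median of -0.03, against 0.10 for all genes. At 2.1 mM 4 were called (15.5%), 3 lower and 1 higher, and at 2.8 mM 3 (14.3%), 2 lower and 1 higher. The 1 called higher at both doses was Klf14 (0.39 and 0.38, adjusted p = 0.0193 and 0.0248), named after its values were seen. Klf13 was called lower at 5 doses, with -1.51 at 2.8 mM (SE 0.203, limma adjusted p = 0.000180) and -0.76 at 0.35 mM (adjusted p = 0.0306). Klf7 fell by 1.59 at 2.8 mM (adjusted p = 0.00586) and Klf9 by 1.28 at 3.5 mM (adjusted p = 0.0279), and Klf16 fell at 0.35 mM by 0.85 (adjusted p = 0.0158). Klf2, Klf13 and Klf16 were each called lower at 0.35 and 2.1 mM. These comparisons were made against the same 0 mM arrays, whose split was seen here too. On replicates 2 and 4 of 0 mM Klf7 had 4.77 and 4.46, Klf9 4.81 and 4.54 and Klf13 3.66 and 3.44. On replicates 1 and 3 Klf7 had 3.30 and 2.90, Klf9 3.47 and 2.86 and Klf13 2.64 and 2.80. At 3.5 mM Klf9 had 2.21, 3.03 and 2.70, which overlapped 0 mM. Whether these calls hold against either untreated pair alone was not tested.

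The genes whose signals tracked each member most closely over the 25 arrays were looked up among 11526 genes with a mean signal above 0. Arc was most like Dnajb1, a heat shock cochaperone (Pearson r = 0.943), and then Gadd45b (0.908). Ier3 was most like Srgn, the proteoglycan serglycin (0.958), and Ptgs2, the inducible cyclooxygenase (0.952). Egr1 was most like 2 other members, Egr2 (0.876) and Ier2 (0.818), and Ier2 was most like Egr2 (0.864). Klf2 was most like Tox2 (0.912), Klf4 like Tsc22d1 (0.900), Klf6 like Chd2 (0.909), Egr2 like Chchd7 (0.885) and Egr3 like Paxx (0.830). These values are descriptions: the arrays share dose groups and the uneven arrays described above, and for Egr1 and Egr2 the correlation was 0.892 between deviations from the dose means alone.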

How the data were processed

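RNA of 25 cultures was hybridized to 25 Affymetrix Mouse Genome 430 2.0 arrays. The deposited log2 values were made by the authors with RMA, per the submitters' processing notes; no version of it or setting is given in the sources used here. Each array has a median of 0, quartiles differ between arrays, and base 2 was inferred from how far the values reach, on which every fold rests. After 64 control probe sets were set aside, 45037 were tested without a filter. A gene was its brightest probe set with 1 symbol (18193 genes).

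The linear model had 1 mean for each dose and used all 25 arrays (limma 3.58.1, R 4.3.3; 17 residual and 2.99 prior degrees of freedom, two-sided). P-values were adjusted by Benjamini-Hochberg over all probe sets of a comparison, with calls at an adjusted p under 0.05. Doses were compared with 0 mM, with the next lower dose and, added after the 0 mM spread was seen, with 0.14 mM. The steps were tested on simulated data. The members and lists were chosen with earlier results of these data known. The text names all members, the 4 genes of each related list with the lowest F test p, and the 2 genes most like each member by Pearson correlation, of which the first, and for some the second, is given. Alternatives (scaling, filter, variance prior, samples fitted, array weights, replicate block, spike level, arrays left out) are given in the closing section. RefSeq promoter sequences are on GRCm38.p6. Motifs were searched by exact letters on both strands; the CArG box allows A or T at its middle positions.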

Additional observations from a re-analysis of the deposited data

How the results depend on the processing

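Counts are members called of 9, by brightest probe set, and those not named here were within 1.5 times of the counts above. Shares in parentheses are of all genes called in the same fits. Leaving out each array in turn gave, against 0 mM, 0 to 0 members at 0.14 mM (0 to 0.143%), 0 to 3 at 0.35 mM (0.412 to 12.7%), 0 to 0 at 0.7 mM (0.0495 to 1.87%), 0 to 0 at 1.4 mM (4.27 to 10.9%), 2 to 4 at 2.1 mM (8.21 to 17.2%), 1 to 3 at 2.8 mM (5.84 to 16.6%), 0 to 2 at 3.5 mM (6.16 to 10.5%) and 3 to 5 in the F test (22.9 to 31.1%). Between neighbouring doses it gave 0 to 1 at 0.35 against 0.14 mM (0.0879 to 5.55%), 0 to 1 at 2.8 against 2.1 mM (0 to 0.137%), 1 to 2 at 3.5 against 2.8 mM (5.94 to 18.3%) and 0 elsewhere; against 0.14 mM it gave 0 to 2 at 2.1 mM (7.24 to 16.2%), 1 to 2 at 2.8 mM (6.32 to 15.5%) and 0 at 0.7, 1.4 and 3.5 mM. With quantile normalization 1 member was called at 0.35 against 0 mM (8.12%) and 1 at 0.35 against 0.14 mM (5.36%). The latter dose pair also gave 1 with arrays centred on their means (4.63%), with dim probe sets left out (8.36%), with a trended and robust prior (3.64%) and without replicates 1 of 1.4 and 2.8 mM (6.27%). Quantile normalization also moved the share of higher calls over all probe sets to 37.43% from 26.6% at 0.35 against 0 mM and to 49.19% from 32.63% at 0.35 against 0.14 mM.

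With dim probe sets left out 2 members were called at 3.5 against 2.8 mM (24.7%, and 14.1% in the main fit). At 2.1 against 0.14 mM that filter also gave 2 (22.8%, and 13.8% in the main fit), and the trended and robust prior gave 2 (13.2%). Fits of only the groups compared, which have fewer arrays, called 1 at 0.35 (2.37%), 1 at 2.8 (5.67%) and 0 at 3.5 (4%) against 0 mM. They called 0 at 2.8 against 2.1 mM (0.44%), and 3 at 0.35 (8.44%), 6 at 2.1 (36.3%) and 4 at 3.5 (14.5%) against 0.14 mM. Replicate numbers are not known to pair the arrays (19 of 84 pairs of equal number had residuals correlated above 0.1). With the replicate block 0 were called at 0.35 (2.53%) and 1 at 2.8 (9.09%) against 0 mM. With spike level as a term 0 were called at 0.35, 2.1, 2.8 and 3.5 against 0 mM, 0 at 2.1 and 2.8 and 1 (Egr3) at 3.5 against 0.14 mM (7.35%, 0.0934%, 0.297% and 5.03% of all genes against 0 mM, and 0.044%, 0.434% and 3.41% against 0.14 mM). Within the low spike level 1 was called at 0.35 against 0 mM (4.96%) and 1 at 0.35 against 0.14 mM (3.85%). Within the high level 0 were called at 2.8 against 2.1 mM (0%) and 2 at 3.5 against 2.8 mM (14.7%). By the probe set of largest variance 1 was called at 1.4 against 0.14 mM (7.74% of all genes by brightest probe set).

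Array weights, whose estimate did not converge and gave 1 array of 0.35 mM a weight of 95.6 beside a median of 0.912, called 6, 8, 6, 5, 8, 7 and 3 at the 7 doses, low to high, against 0 mM (20.4%, 52%, 30.8%, 23.7%, 39.7%, 34.7% and 16.7% of all genes), and 8 in the F test (86.1%). They called 3 at 0.35 against 0.14 mM, 4 at 0.7 against 0.35 mM, 2 at 2.8 against 2.1 mM and 4 at 3.5 against 2.8 mM (46.6%, 41.7%, 3.04% and 28.2%), and against 0.14 mM 1 at 0.7 and 1.4 mM and 3 at 2.1, 2.8 and 3.5 mM (10.4%, 23.8%, 44.7%, 39.5% and 25.6%).

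Alternatives added after seeing the data left out uneven arrays. Without replicates 2 and 4 of 0 mM 0 members were called at 0.35 (0.0165%), 1 at 1.4 (7.87%) and 2 at 3.5 (9.66%) against 0 mM. Without replicates 1 and 3 of 0 mM 3, 5, 5, 3 and 7 were called at 0.14 mM, 0.35 mM, 0.7 mM, 1.4 mM and 2.1 mM against 0 mM (3.74%, 14.8%, 5.76%, 11.1% and 17.5%), and 8 in the F test (35.7%); at 3.5 mM the 1 member called was Klf6, lower, in place of Klf4, higher. Without replicates 1 of 1.4 and 2.8 mM 3 were called at 3.5 against 2.8 mM (19%), and 2 at 2.1 (15.9%), 3 at 2.8 (16.5%) and 1 at 3.5 (14%) against 0.14 mM.

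The sign of 7 values turned between fits, none of them called before; the cause was not tested. With array weights these were Klf6 1459718_x_at at 0.35 against 0 mM (-0.36, and 0.0008 before), Klf6 1433508_at at 2.1 against 0 mM (-0.87, and 0.09) and at 0.7 against 0.35 mM (-0.60, and 0.06), and Egr1 at 2.8 against 0 mM (-1.49, and 0.05). Klf6 1433508_at at 2.8 against 0 mM was 1.10 without replicates 2 and 4 of 0 mM (-0.16 before), and at 2.1 mM it was -1.17 without replicates 1 and 3 and 1.35 without replicates 2 and 4, while Klf6 1447448_s_at at 1.4 mM was -1.07 (0.02 before). The limits are the 3 or 4 arrays of a dose, their spread for these genes, the unstated base of the logarithm, and a spike level that moves with dose.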
